A study of Homo sapiens with 4 samples.

Results

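Teneurins are 4 cell surface proteins, encoded by *TENM1*, *TENM2*, *TENM3* and *TENM4*, and latrophilins are the adhesion G protein-coupled receptors encoded by *ADGRL1*, *ADGRL2*, *ADGRL3* and *ADGRL4*. These 8 genes, of the 57905 listed in the deposited count files, were chosen by the measured fall of the *TENM2* count in U87MG cells after chaetocin. The other 7 were included by family name, with earlier results of these data known. The *TENM2* contrast that prompted the choice is therefore given as a description with no test. U87MG is an established human glioblastoma cell line. RNA of 4 samples was sequenced, 2 from untreated cells (control) and 2 from cells given 50 nM chaetocin for 24 h. Chaetocin is a fungal metabolite. The paper describes it as unspecific, inhibiting several histone methyltransferases, SUV39H1 among them, and also the thioredoxin reductase TXNRD1. The labels name no solvent-treated group, so an effect of the solvent and of chaetocin cannot be told apart here. The labels do not say that the samples of a group came from separate cultures, and the spread behind each p-value may be technical.

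Teneurins cross the membrane once, with a large extracellular part that carries EGF-like repeats, a beta-propeller and a barrel of YD repeats. They pair with one another across cell contacts and bind the lectin domain of latrophilins on the opposing cell. In the nervous system this contact is known for axon guidance and for the matching of synaptic partners. Latrophilins also bind the FLRT proteins through their olfactomedin domain, and *ADGRL1* was first known as a receptor of the spider toxin alpha-latrotoxin. *ADGRL4*, known from endothelial cells, lacks the lectin and olfactomedin domains of its relatives. In bulk RNA, fewer cells that express a gene and less of its RNA per cell cannot be told apart.

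The samples held between 21241984 and 32590479 counts, and 3 reads, taken as the floor of detection, corresponded to between 0.0844 and 0.138 CPM (a gene's count divided by the library size in units of 1000000 counts, with TMM factors). Such limits cover counting error at most. Whether PCR copies of a molecule were removed before counting is not given in the sources used here. After removal of genes with low counts, 16416 genes were tested, of which 182 (1.11%) were higher and 122 (0.743%) were lower in chaetocin samples at an adjusted p under 0.05 in edgeR's quasi-likelihood test. Of the 8 genes, 5 were kept by that filter, namely *TENM2*, *TENM3*, *TENM4*, *ADGRL1* and *ADGRL2*.

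The 3 teneurins detected in these cells were lower after chaetocin. *TENM3* and *TENM4* fell to about the same degree, by 0.91 and 1.04 on the log2 scale, and *TENM2*, the least abundant of the 3, was lower by 1.80, a difference between paralogs that was not tested. *ADGRL2*, the more abundant latrophilin, was lower in both chaetocin samples without passing the test, whereas the groups overlapped for *ADGRL1*. *TENM1*, *ADGRL3* and *ADGRL4* were at or near the floor in every sample.

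The stretches of DNA just before the annotated starts of the 3 detected teneurins are shown because these genes were lower together, and the windows differ in their content of CG, the base pair step at which DNA is methylated. RefSeq (GRCh38.p14) lists 2 starts of *TENM2*, 2 of *TENM3* and 1 of *TENM4*. Neither *TENM2* start (167073242 and 167754929) is the GENCODE start given below (167284799). The first lies before the GENCODE span and the second within it. The first *TENM3* start and the *TENM4* start lie close to the GENCODE starts of these genes. The 250 bases before each start are given in transcript orientation, with every CG in capitals. Counts per gene do not tell which start U87MG cells use. The first window of *TENM2* ends in a run rich in pyrimidines followed by ag, letters usual at the end of an intron, so this listed start may be incomplete.
TENM2 on the plus strand, chr5:167072992-167073241: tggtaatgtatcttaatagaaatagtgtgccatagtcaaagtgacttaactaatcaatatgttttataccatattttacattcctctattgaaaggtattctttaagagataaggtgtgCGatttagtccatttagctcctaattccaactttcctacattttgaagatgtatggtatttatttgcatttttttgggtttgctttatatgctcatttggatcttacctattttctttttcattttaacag
TENM2 on the plus strand, chr5:167754679-167754928: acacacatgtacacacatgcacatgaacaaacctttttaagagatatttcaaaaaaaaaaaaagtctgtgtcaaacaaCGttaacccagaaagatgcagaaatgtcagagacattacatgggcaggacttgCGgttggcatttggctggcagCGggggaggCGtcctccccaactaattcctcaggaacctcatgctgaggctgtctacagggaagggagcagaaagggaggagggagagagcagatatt
TENM3 on the plus strand, chr4:182143713-182143962: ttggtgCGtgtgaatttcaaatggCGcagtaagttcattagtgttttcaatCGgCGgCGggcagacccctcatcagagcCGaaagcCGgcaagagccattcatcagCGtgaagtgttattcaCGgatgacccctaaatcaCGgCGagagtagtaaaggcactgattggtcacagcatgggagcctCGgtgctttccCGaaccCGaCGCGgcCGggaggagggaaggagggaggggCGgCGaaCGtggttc
TENM3 on the plus strand, chr4:182448766-182449015: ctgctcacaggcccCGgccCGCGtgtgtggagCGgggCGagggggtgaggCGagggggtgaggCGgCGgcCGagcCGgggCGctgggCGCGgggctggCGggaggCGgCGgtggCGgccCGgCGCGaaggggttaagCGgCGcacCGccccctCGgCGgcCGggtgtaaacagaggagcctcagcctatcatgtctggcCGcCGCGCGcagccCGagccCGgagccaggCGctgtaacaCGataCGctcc
TENM4 on the minus strand, chr11:79441031-79441280: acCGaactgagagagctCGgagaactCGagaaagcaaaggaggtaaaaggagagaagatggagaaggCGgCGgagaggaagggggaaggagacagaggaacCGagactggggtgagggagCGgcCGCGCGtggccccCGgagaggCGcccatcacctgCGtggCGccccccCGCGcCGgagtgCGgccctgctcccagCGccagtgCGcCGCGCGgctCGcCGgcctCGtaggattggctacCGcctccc

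The windows of *TENM2* held 1 and 4 CG. Of all 35116 RefSeq windows of this length, 6.06% and 29.3% held fewer. The windows of *TENM3* held 20 and 35 CG, and 67.6% and 94.2% of all windows held fewer. The *TENM4* window held 27 CG, with 82.3% of all windows below it. Over all windows the median was 11 CG. No window covers the GENCODE start of *TENM2*, so the CG content before that start is not given. Short motifs were searched on both strands, with overlapping matches of different motifs allowed. None of the 5 windows held TGACNNNGC, the core of the antioxidant response element, which was present in 10.9% of all windows. None held TGANTCA, the AP-1 site, which was present in 6.57%. The letters GGAATG, the core of the TEAD site, were found once, in the first *TENM2* window, and in 11.9% of all windows. The table holds 18 windows for 7 of the 8 genes, all but *ADGRL1*. Of the 8 windows of *ADGRL2*, 1 held TGACNNNGC and another GGAATG, and the window of *ADGRL4* held TGANTCA and GGAATG once each. The windows of *TENM1* and *ADGRL3* held none of these motifs.

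*TENM3* encodes the teneurin known for wiring in the visual system and was the most abundant member in these cells. GENCODE v29 on GRCh38 places it on chromosome 4, from 182143987 to 182803024 (plus strand, 659 kb). The control samples held 203 and 172 CPM and the chaetocin samples 95.5 and 104 CPM. Both chaetocin samples lay below both controls, and the chaetocin samples were closer to each other than the controls were. Per length, the level went from 15.6 ± 1.84 RPKM (CPM per kb of exon, SD, n = 2) in control cells to 8.33 ± 0.504 RPKM (n = 2) in treated cells. The log2 fold change was -0.91 (SE 0.15, adjusted p = 0.0355 in edgeR's quasi-likelihood test over all tested genes), a level 1.88-fold lower. Without control sample 1, in which *TENM3* was highest, the value was -0.80 and the adjusted p from edgeR was 0.158.

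*TENM4*, a teneurin known for a role in myelination, spans chromosome 11 from 78652831 to 79440948 (minus strand, 788 kb). It held 49.7 and 42.0 CPM in the control samples and 21.8 and 22.6 CPM in the chaetocin samples. The groups did not overlap, and the pair of treated samples differed by less than the pair of controls. The level fell from 2.81 ± 0.332 RPKM to 1.36 ± 0.0335 RPKM (SD, n = 2 each), 2.06-fold lower, with a log2 fold change of -1.04 (SE 0.16, edgeR adjusted p = 0.0306). Without control sample 1, again the highest of the 4, the log2 fold change was -0.93 and the edgeR adjusted p was 0.0752. *TENM3* and *TENM4* kept an adjusted p under 0.05 in each of the 7 other settings tried with all 4 samples.

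*TENM2* encodes the teneurin first described as a ligand of *ADGRL1*. Its span, chromosome 5 from 167284799 to 168264157 (plus strand, 979 kb), is the longest of the 8 genes. It was counted with 328 and 322 reads in the control samples and with 88 and 109 reads in the chaetocin samples. Scaled to the libraries, these were 13.4 and 11.2 CPM against 4.04 and 3.07 CPM, so that both treated samples lay far below both controls. The level per length was 1.12 ± 0.143 RPKM in control cells and 0.322 ± 0.0625 RPKM in treated cells (SD, n = 2 each). The fitted log2 fold change was -1.80 with a 95% interval from -2.37 to -1.24, a level 3.49-fold lower or 28.7% of control. This interval is that of the value that chose the gene and is not a test of it.

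**Figure D1:**
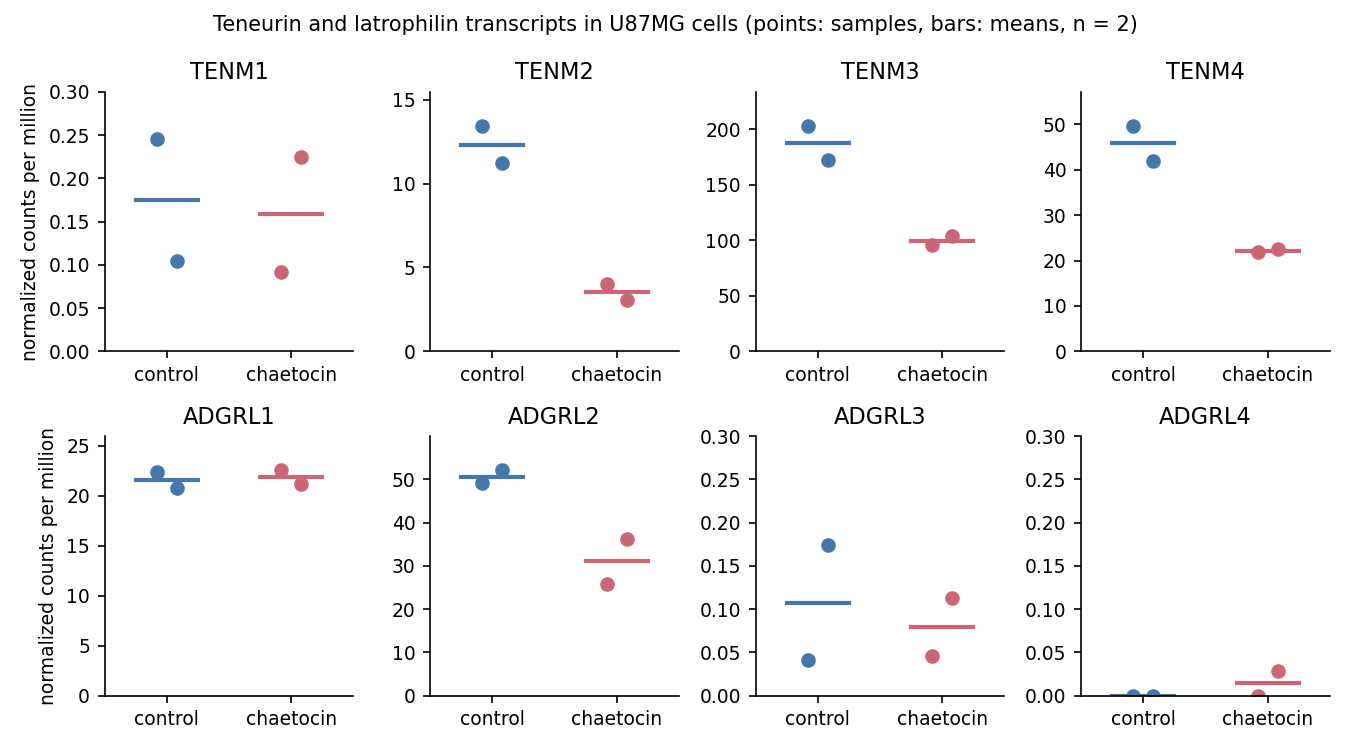
Level of each of the 8 genes in every sample, in CPM, with control samples at left and chaetocin samples at right of each panel and the group mean as a line. Both chaetocin samples lie below both controls for *TENM2*, *TENM3*, *TENM4* and *ADGRL2*, the groups overlap for *ADGRL1*, and *TENM1*, *ADGRL3* and *ADGRL4* stay at or near 0.

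In control cells, *TENM3* exceeded *TENM4*, which exceeded *TENM2*, and the gaps between 15.6, 2.81 and 1.12 RPKM were larger than the spread of the samples. Among 13151 tested protein-coding genes, the control level per length of *TENM3* was at percentile 77.1, that of *TENM4* at 36.4 and that of *TENM2* at 23.2. The order was the same in treated cells. With *ADGRL2* at 6.52 ± 0.281 RPKM and *ADGRL1* at 2.54 ± 0.136 RPKM, the whole order in control cells was *TENM3*, *ADGRL2*, *TENM4*, *ADGRL1* and *TENM2*. The neighbours *TENM4* and *ADGRL1* did not differ beyond their spread. In treated cells the order of these neighbours was exchanged, with *ADGRL1* at 2.58 ± 0.114 RPKM and *TENM4* at 1.36 ± 0.0335 RPKM.

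Ratios of reads within a library do not depend on how the libraries are scaled. For each read of *TENM2*, the control samples held 15.1 and 15.3 reads of *TENM3*, and the chaetocin samples 23.6 and 33.9. The controls agreed closely and both treated samples lay above them. The ratio of *TENM4* to *TENM2* was 3.70 and 3.75 in control cells and 5.40 and 7.37 in treated cells, with the same order of the samples. The ratio of *TENM3* to *TENM4* was 4.09 in either control and 4.38 and 4.61 in the chaetocin samples. The part of *TENM2* in the summed teneurin level per length was 5.74% and 5.66% in control cells and 3.78% and 2.68% in treated cells. The summed level was 21.2 and 17.9 RPKM in control cells and 9.68 and 10.4 RPKM in treated cells, of which *TENM3* was between 79.8% and 83.8%. With 2 samples against 2, a two-sided exact permutation test cannot give a p below 0.333, and the ratios to *TENM2* and its share also restate the fall that chose the genes, so all are given as descriptions with no test.

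**Figure D2:**
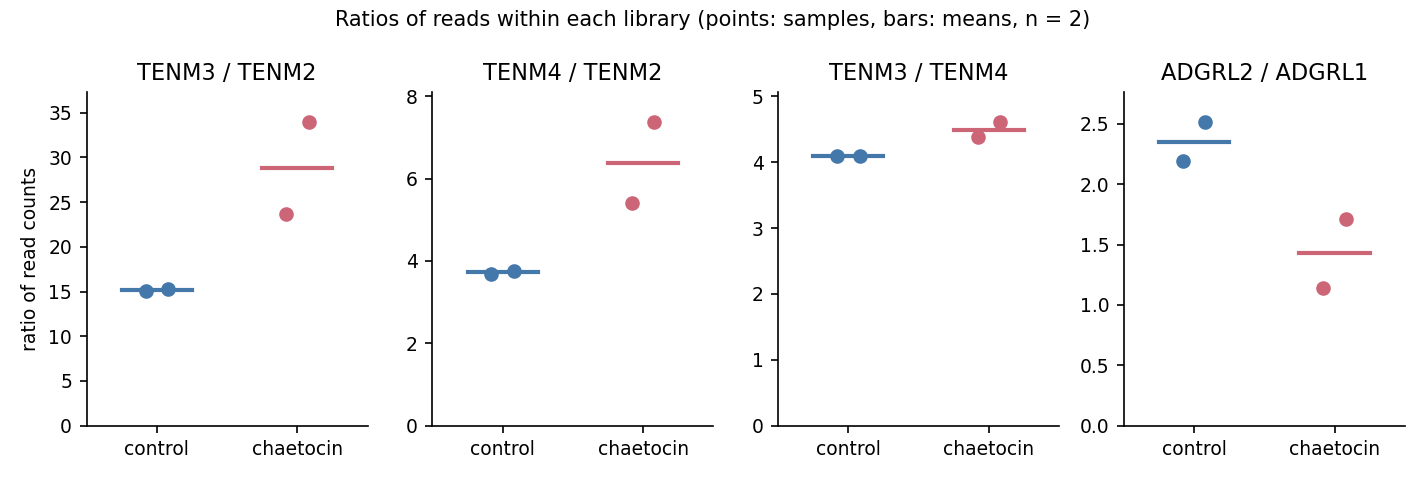
Ratio of reads of pairs of genes within each library, with each point a sample and each line a group mean. After chaetocin the ratios of *TENM3* and *TENM4* to *TENM2* lie above the control values, and the ratio of *ADGRL2* to *ADGRL1* lies below them, in each sample. *TENM2* is the gene chosen for its fall, so the direction of the ratios to it was fixed by that choice.

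*ADGRL2*, a latrophilin found well beyond the brain, spans chromosome 1 from 81306160 to 81992436 (plus strand, 686 kb). It held 49.0 and 52.1 CPM in control cells and 25.8 and 36.3 CPM in treated cells. The groups did not overlap, but the treated samples lay further apart than the controls. The log2 fold change was -0.70 (SE 0.19, 95% interval from -1.14 to -0.27), and the edgeR adjusted p of 0.0942 did not pass the threshold. The call depended on the setting. With no filter, edgeR called *ADGRL2* lower (-0.72, adjusted p = 0.00344), among 759 genes called lower. With the replicate block, edgeR also called it (-0.72, adjusted p = 0.00225), among 1053 genes called lower. DESeq2, which called 478 genes (2.82%) lower and 382 (2.25%) higher, gave -0.72 with an adjusted p of 0.0360, and edgeR gave -0.98 with an adjusted p of 0.00297 without chaetocin sample 2 and -0.48 with an adjusted p of 0.0299 without chaetocin sample 1. It was not called in edgeR without control sample 1 (adjusted p = 0.196) or 2 (0.273), nor with upper-quartile factors (0.121), after thinning (0.115) or with 10 or more counts in each sample (0.115).

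*ADGRL1* is the shortest of the 8 genes (chromosome 19, 14147743 to 14206187, minus strand, 58.4 kb). Its levels were 22.4 and 20.7 CPM in control cells and 22.6 and 21.2 CPM in treated cells. The groups overlapped. The log2 fold change was 0.02 (SE 0.16, edgeR adjusted p = 0.960), with a 95% interval from -0.35 to 0.40, which leaves out falls as large as those fitted for the 3 teneurins. The library ratio of *ADGRL2* to *ADGRL1* was 2.19 and 2.51 reads in control cells and 1.14 and 1.71 in treated cells, without overlap. *ADGRL1* made up 29.4% and 26.6% of the summed latrophilin level per length in control cells and 44.4% and 34.7% in treated cells. Teneurin RPKM per latrophilin RPKM was 2.37 and 1.95 in control cells and 1.62 and 1.44 in treated cells.

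Leaving aside *TENM2*, whose fall chose the genes, 3 of the other 4 kept by the filter had both chaetocin samples below both controls, as had 26.0% of all tested genes. Of these 4, 2 passed the test as lower and 0 as higher, beside 0.743% and 1.11% of all tested genes in edgeR, and without control sample 1 the count of lower genes was 0. At an unadjusted p under 0.05 in edgeR, 3 of the 4 were lower and 0 higher, beside 9.43% and 10.9% of all tested genes, and with DESeq2 at the adjusted threshold 3 were lower and 0 higher, beside 2.82% and 2.25%.

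*TENM1*, the teneurin gene of the X chromosome (124375903 to 124963817, minus strand), had 6 and 3 reads in control samples and 2 and 8 in chaetocin samples. The sums of 9 and 10 reads have exact Poisson 95% intervals of 4.12 to 17.1 and 4.80 to 18.4, so no difference was detectable at this depth. *ADGRL3*, a latrophilin of the brain (chromosome 4, 61201258 to 62078335, plus strand), had 1 and 5 reads in control cells and 1 and 4 in treated cells. *ADGRL4* (chromosome 1, 78889764 to 79006718, minus strand) had 1 read in all, in chaetocin sample 2. No fold change is given for these 3 genes.

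No stretch of 50 bases, the read length, was shared exactly between the annotated transcripts of any pair of the 8 genes. Shorter stretches and matches with mismatches were not searched. *TENM2*, *TENM4*, *ADGRL2* and *ADGRL4* shared no such stretch with any other gene. In *TENM3*, 1.14% of stretches were also found in other genes, and *TENM3-AS1*, an antisense gene with 115 exon bases in common, had 274 and 200 reads in control samples and 129 and 287 in chaetocin samples. *ADGRL1-AS1*, antisense to *ADGRL1*, had 43 and 60 reads in control cells and 48 and 71 in treated cells. In *ADGRL1* the share was 4.88%, with transcripts annotated as *AC022098.1* and *SUZ12P1*. For *TENM1* it was 1.52%, shared with *STAG2*, a cohesin gene on the other strand counted with between 2459 and 4457 reads per sample. For *ADGRL3* it was 0.556%, shared with *ADGRL3-AS1*, which had 0 reads in every sample. Whether the authors counted by strand is not given in the sources used here, so reads in the shared stretches of these 4 genes are uncertain. *TENM2* has 11 annotated genes within its span, none of which shares exon bases with it, and the 10 listed in the files had at most 11 reads in a sample.

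Proteins that bind teneurins or latrophilins, or act just below them, were taken as a list of 23 partners, of which 17 were tested. With edgeR, 0 were called higher and 0 lower, with a median log2 fold change of -0.04 beside 0.01 over all tested genes, and 9 of the 17 were below 0. The sign of this median also turned with the setting, to 0.050 with DESeq2. At an unadjusted p under 0.05, 2 were higher and 1 lower (10.9% and 9.43% of all tested genes), and DESeq2 called 1 higher and 0 lower (2.25% and 2.82% of all). The most abundant were *HINT1* (0.17 on the log2 scale), a nucleotide hydrolase reported to bind the intracellular part of teneurin, *SGCB* (0.03), a sarcoglycan, and *DAG1* (-0.25), which encodes dystroglycan.

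The FLRT genes encode the other ligands of latrophilins, and they and *UNC5B* are named here after their values were seen. *FLRT2*, at 78.2 and 94.2 CPM in control cells and 79.9 and 75.6 CPM in treated cells, was by far the most abundant of them and its groups overlapped. *FLRT3* had 1.27 and 1.57 CPM in control cells and 2.34 and 2.73 CPM in treated cells (log2 fold change 0.84, edgeR adjusted p = 0.207), and both treated samples were above both controls. *FLRT1* had 4 reads in either control and 12 in either chaetocin sample, and it was kept by the filter only through the latter. *UNC5B*, a netrin receptor that also binds FLRT proteins, had 141 and 83.2 CPM in control cells and 59.1 and 21.5 CPM in treated cells. Its samples spread widely within each group, and its log2 fold change of -1.48 had an edgeR adjusted p of 0.142.

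Latrophilins belong to the adhesion G protein-coupled receptors, and 17 of 28 others were tested. With edgeR, 2 were lower and 0 were higher, beside 0.743% and 1.11% of all tested genes. At an unadjusted p under 0.05, 5 were lower and 3 higher (9.43% and 10.9% of all tested genes), and DESeq2 called 3 lower and 1 higher (2.82% and 2.25% of all). The list's median was -0.24 in edgeR, and its sign turned to 0.14 with DESeq2 and 0.13 with no filter. *ADGRG1*, a collagen receptor known from brain development, held 562 and 596 CPM in control cells and 323 and 249 CPM in treated cells, without overlap (log2 fold change -1.02, edgeR adjusted p = 0.0399, and -0.99 with 0.0882 without control sample 2). *CELSR1*, a cadherin of planar cell polarity, held 81.7 and 81.0 CPM in control cells and 48.1 and 47.4 CPM in treated cells (-0.77, edgeR adjusted p = 0.0396). Its replicates were close in both groups, and the log2 fold change was about as large without control sample 1 (-0.78) or 2 (-0.79), though the call was lost there (adjusted p = 0.167 and 0.119 in edgeR). Of the abundant *ADGRE5*, the leukocyte antigen CD97, and *ADGRA3* the log2 fold changes were -0.21 and 0.15, with overlapping groups.

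Other families of synaptic adhesion proteins made up a list of 43 genes, of which 25 were tested. With edgeR, 1 gene was called higher and 1 lower (1.11% and 0.743% of all tested genes). At an unadjusted p under 0.05, 3 were higher and 6 lower (10.9% and 9.43% of all), and DESeq2 called 1 higher and 3 lower (2.25% and 2.82% of all). The list's median was -0.11, and its sign was not stable, since it was 0.064 with DESeq2 and between -0.33 and 0.086 with 1 sample left out. *SLITRK5*, which encodes a leucine-rich repeat protein of synapses, held 41.0 and 37.2 CPM in control cells and 18.6 and 20.2 CPM in treated cells (-1.01, edgeR adjusted p = 0.0306). Without control sample 1, its log2 fold change was -0.95 with an adjusted p of 0.0706 in edgeR. *NRCAM*, a neuronal cell adhesion molecule, went the other way, from 14 and 17 reads in control samples to 47 and 99 in chaetocin samples (2.08, edgeR adjusted p = 0.0400). *NLGN2*, *LRFN3* and *LRFN4*, the most abundant of the list per length, had log2 fold changes of 0.26, -0.17 and 0.40, and none of the 3 was called.

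**Figure D3:**
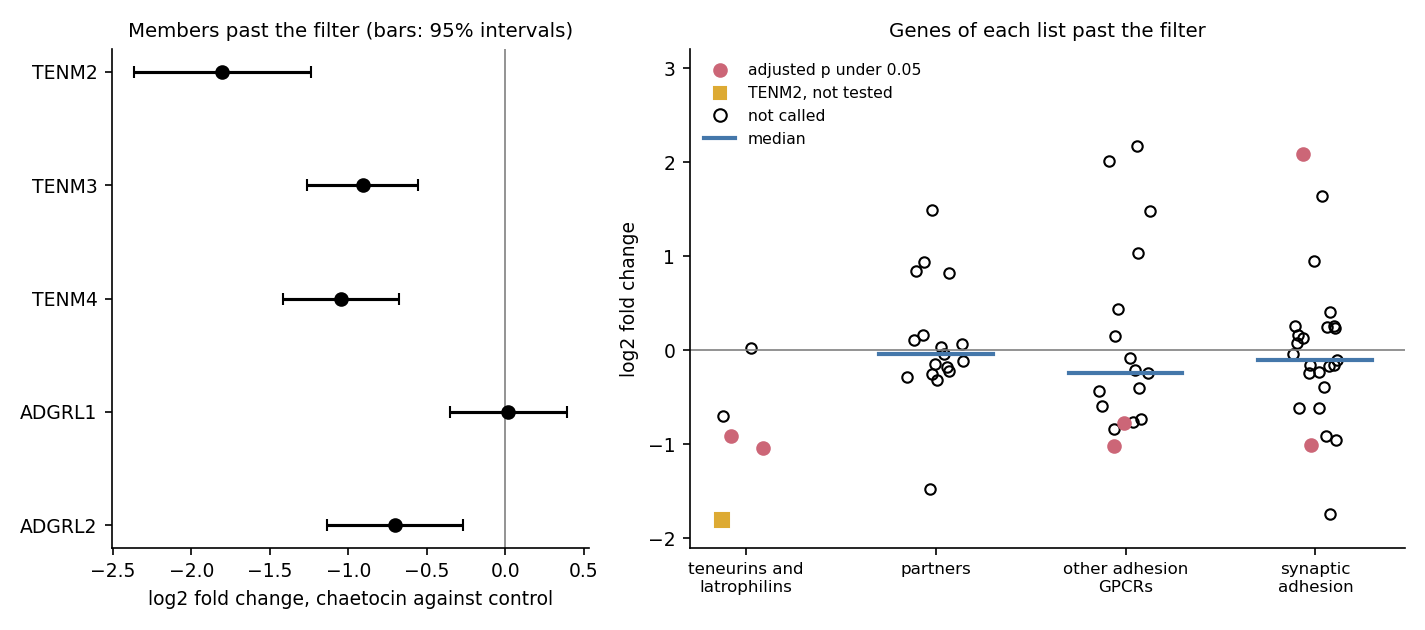
Left, log2 fold change of chaetocin against control for the 5 genes kept by the filter, with 95% intervals as bars. Right, log2 fold changes of these genes and of the tested partners, other adhesion G protein-coupled receptors and synaptic adhesion genes, with genes called at an adjusted p under 0.05 filled, *TENM2* as a square and list medians, which lie between -0.24 and -0.04, as lines.

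A feature that the choice of the genes did not use is their length. With the introns counted, 6 of the 8 genes span at least 500 kb, as do 311 protein-coding genes in all, and *ADGRL1* and *ADGRL4* are shorter. Of the 231 such genes tested, 9 (3.90%) were lower and 2 (0.866%) higher in edgeR, with a median of -0.16. Without the teneurins and latrophilins, 6 of 227 (2.64%) were lower and 2 higher, with a median of -0.15. For tested protein-coding genes of any length, 0.905% were lower and 1.11% higher, and the median was -0.02. In the class under 10 kb, 0.254% were lower (median 0.03), and in the classes from 100 to 250 kb and from 250 to 500 kb 1.71% and 3.07% were lower (medians -0.11 and -0.16). *TENM2*, *TENM3*, *TENM4* and *ADGRL2* were each lower than the lower quartile of the longest class, -0.48, and *ADGRL1* was within the quartiles of its class, from 50 to 100 kb. The part that length plays in the teneurin values was not tested.

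**Figure D4:**
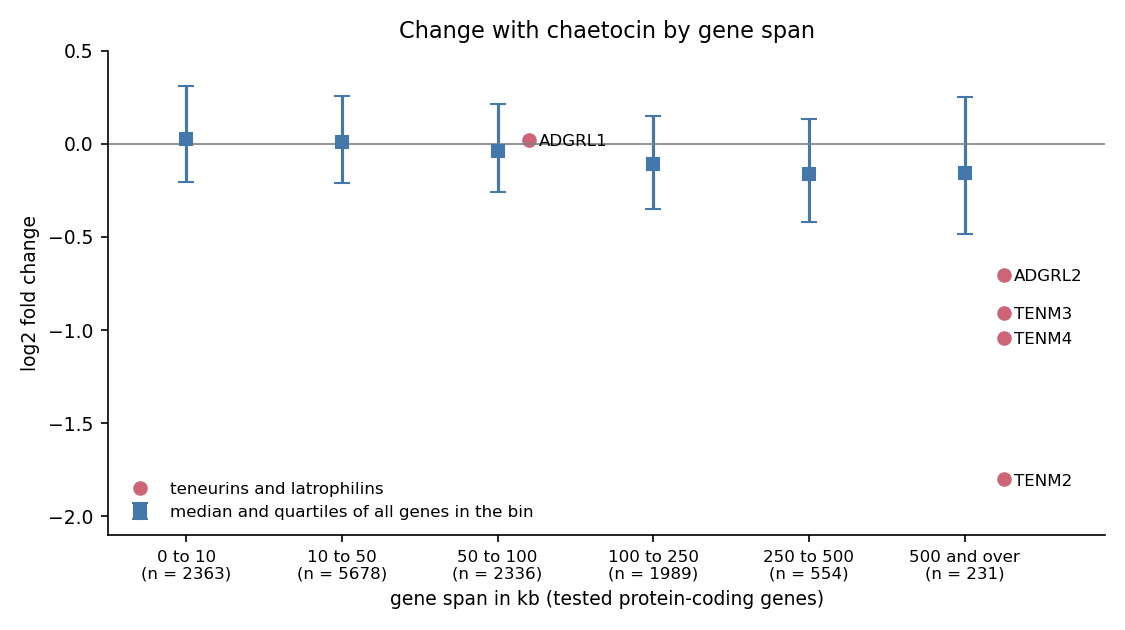
Log2 fold change of tested protein-coding genes by the span of the gene on the genome, as median and quartiles per length class in kb, with the 5 tested teneurins and latrophilins as points. The medians go from 0.03 under 10 kb to -0.16 at 500 kb or more, and *TENM2*, *TENM3*, *TENM4* and *ADGRL2* lie below the quartile range of the longest class.

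Apart from the teneurins, the long genes lower with the smallest p were *NEGR1*, a cell adhesion gene of neurons (-1.38), *CSMD2* (-1.14), *SEMA5A*, an axon guidance gene (-1.27), and *ANK2*, a membrane scaffold (-1.28). Their edgeR adjusted p-values were between 0.0262 and 0.0279. The 2 long genes called higher had fewer than 10 reads in each control and were kept by the filter through the chaetocin samples. *RELN*, which encodes the secreted guidance protein reelin, had 1 read in either control and 45 and 94 reads in the chaetocin samples. *SORCS1*, a sorting receptor gene named here after its values were seen, had 7 and 6 reads in control samples and 42 and 101 in chaetocin samples. Of the most abundant long genes, *PRKCA*, which encodes protein kinase C alpha, was called (-1.07, edgeR adjusted p = 0.0412, and 0.140 without control sample 1), while *SPOCK1* (-0.25) and *CDH13* (-0.62, edgeR adjusted p = 0.0969) were not called in edgeR. DESeq2 called *CDH13* lower.

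The genes with a pattern most like *TENM2* over the 4 samples were found by the Euclidean distance of centred log2 CPM among 13611 genes with at least 1 CPM on average. They were *ITGA2* (distance 0.245), *ANO8* (0.289), *TMEM35A* (0.293), *ALPK2* (0.302) and *ITGA11* (0.324). The list depended on the measure, since Pearson correlation over the same samples named 0 of these 5. *ITGA2* and *ITGA11* encode collagen-binding integrins and *ANO8* an anoctamin. *ITGA2* held 275 and 225 CPM in control cells and 95.6 and 57.5 CPM in treated cells. By this measure *TENM4* ranked 124, *TENM3* 250, *ADGRL2* 850 and *ADGRL1* 6906. With 4 samples in 2 groups, any gene lower by about as much ranks high.

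Markers of the labelled cell type were checked beside these values. Of 9 astrocyte and glioma markers, 5 were at 1 CPM or more in every sample, *VIM* and *CD44* being the most abundant, whereas *AQP4* had 0 reads throughout and *S100B* and *SOX2* had 0 reads in the controls. *GFAP*, the defining astrocyte filament, was low, with 25 reads in either control and 10 and 17 in the chaetocin samples. The summed level of the 9 was between 4953 and 5619 CPM in control cells and between 2030 and 3281 CPM in treated cells, so it was lower together with the teneurins. Its part in their values was not tested. All 6 tested markers had log2 fold changes below 0, as had 49.1% of all tested genes. Of the 6, 1, *CHI3L1*, was called lower in edgeR, beside 0.743% of all tested genes. Of 4 neuronal markers, 2 were at 1 CPM or more in every sample (sum between 52.7 and 59.5 CPM in control cells and between 25.2 and 42.6 CPM in treated cells), with *STMN2* at 0 in the controls. The 4 endothelial markers found in the files summed to between 13.4 and 18.6 CPM in control cells and between 11.6 and 12.0 CPM in treated cells. The 5 leukocyte markers summed to between 0.492 and 0.592 CPM in control cells and between 2.62 and 3.07 CPM in treated cells, with *AIF1* at 0 throughout. *PTPRC* had 0 and 1 reads in control samples and 15 and 27 in chaetocin samples, and *ITGAM* had 0 and 1 and then 24 and 29. Both were kept by the filter only through the chaetocin samples, so their calls as higher are given no weight. The part of these transcripts in the teneurin values was not tested.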

How the data were processed

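RNA sequencing of U87MG cells gave 1 table per sample. The authors deposited read counts per Ensembl gene, whole numbers without normalization. The submitters' notes name cutadapt, TopHat, TopHat2, SAMtools and GRCh37, and the counting tool is not given in the sources used here. The paper's methods test differential expression with DESeq2. Samples were grouped by their labels, and 52338 of the 57905 identifiers matched GENCODE v29 on GRCh38, used for symbols, lengths and positions. Positions are on GRCh38, not on the build of the files.

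Counts were tested in R 4.3.3 with edgeR 4.0.16: filterByExpr (minimum count 10), TMM factors, a robust quasi-likelihood fit with no block and Benjamini-Hochberg adjustment over 16416 genes, with a threshold of 0.05. The biological coefficient of variation was 16.8%. Levels per length used the union of annotated exons. On simulated data with the dispersions estimated here, known changes were recovered with the right sign, but unchanged genes made up more of the calls than the threshold allows, which bears on adjusted p-values near it. The genes and lists were chosen with earlier results of these data known. Named were all 8 genes, the called genes of each list (at most 6 by smallest p) and its 3 most abundant per length, the 5 genes most like *TENM2*, and genes overlapping a member. *SORCS1*, *UNC5B* and the FLRT genes were named outside this rule, after their values were seen. Some genes of the lists are not reported here. Alternatives were RLE and upper-quartile factors, no filter, at least 10 counts in every sample, DESeq2 1.42.0, a replicate block, thinning to the smallest library, leaving out each sample, the longest transcript as length and Pearson correlation as likeness.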

Additional observations from a re-analysis of the deposited data

How the results depend on the processing

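*TENM2* stayed lower in all 11 alternative settings (-1.83 to -1.73 on the log2 scale with all samples and -2.00 to -1.61 with 1 left out). *TENM3* (-1.03 to -0.80 with 1 left out) and *TENM4* (-1.17 to -0.93) stayed lower too and lost their call in edgeR without control sample 1, at -0.80 and -0.93, leaving 1 of the 8 genes called there and 3 or 4 elsewhere. That count includes *TENM2*, the gene whose value chose the set, and without it 0 were called there and 2 or 3 elsewhere. *ADGRL2* was lower throughout (-0.98 to -0.48 with 1 left out) and was called with DESeq2 (-0.72), no filter (-0.72) and the replicate block (-0.72). *ADGRL1* changed sign without control sample 2 (-0.043) and without chaetocin sample 1 (-0.021), with a range of -0.043 to 0.063 over the fits with 1 left out. A lone sample was assumed to vary like the other group.

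Over all genes, 382 were higher and 478 lower with DESeq2, 787 and 759 with no filter, 114 and 80 with 10 or more counts in each sample, and 1036 and 1053 with the replicate block. Leaving out 1 sample gave 215 to 1332 higher and 97 to 1673 lower. The cause was not tested. Calls of the 8 genes in these settings therefore stand against totals that differ widely. Samples share only a number (same-numbered deviations correlated with r = 0.123 over genes, with 2 pairs). The replicate block changed no other call of the 8 genes.

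Of the long genes, DESeq2 called 4 higher and 22 lower, beside 2.25% and 2.82% of all genes it tested. The 22 include *TENM2*, *TENM3*, *TENM4* and *ADGRL2*. No filter gave 9 higher and 32 lower, the replicate block 13 and 39, and the filter of 10 or more counts in each sample 0 higher. The counts over all genes in these settings are those given above. The median was -0.20 under that filter, -0.19 after thinning and -0.080 with upper-quartile factors. With 1 sample left out, 2 to 13 were higher and 7 to 45 lower, with medians of -0.19 to -0.13. Of the other adhesion receptors, 1 was higher with DESeq2 (median 0.14), 1 higher and 4 lower with no filter (median 0.13), and 2 higher and 4 lower with the replicate block. Their median was -0.41 under the filter of at least 10 counts in each sample and -0.43 after thinning. With 1 sample left out 0 to 2 were higher and 0 to 5 lower, with medians of -0.35 to -0.11. Of the partners, 1 was higher with DESeq2 (median 0.050) and with no filter (median 0.047), and 1 higher and 1 lower with the replicate block. With 1 sample left out, 0 to 1 were higher and 0 to 1 lower, with medians of -0.10 to 0.10. Of the synaptic genes, 3 were lower with DESeq2, 3 with no filter and 4 with the replicate block, and with 1 sample left out 1 to 2 were higher and 0 to 5 lower. DESeq2 and no filter cover more genes of each list than the main filter, and the stricter filter and thinning fewer. The longest transcript as length gave control levels of 1.31 RPKM for *TENM2*, 3.27 for *TENM4*, 2.75 for *ADGRL1* and 8.03 for *ADGRL2*, and correlation named 0 of the same 5 genes as most like *TENM2*.

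*TENM1*, *ADGRL3* and *ADGRL4* had too few reads for a comparison at this depth, and 2 samples per group limit the precision of the other 5 genes.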
